A study of Mus musculus with 2 samples.

Results

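The 6 genes Egr1, Egr2, Egr3, Nr4a1, Nr4a2 and Nr4a3 were followed across the cell classes of the proximal small intestine in 2 VilCreER Apc fl/fl mice. They were taken by gene symbol, and all 6 were among the 31053 genes in the count tables. They were selected on their measured levels in these cells, seen in an earlier analysis, so the levels by class are a description and carry no test. In these mice the villin promoter drives a tamoxifen-inducible Cre recombinase in intestinal epithelium and both copies of Apc are floxed, so the leukocytes described here are not the cells in which the allele is deleted. Tamoxifen was injected i.p. in 2 doses of 2 mg a day apart, and tissue was taken on day 4. The tissue was chopped and digested with enzymes, dead cells were sorted out with DAPI, and libraries of 10x 3′ v3 chemistry were sequenced. Both mice belonged to 1 group and no control library was analysed here, so each comparison is between cell classes of the same animals.

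Egr1, Egr2 and Egr3 encode zinc-finger transcription factors that are transcribed within minutes of growth factor, cytokine or antigen-receptor signalling. Nr4a1, Nr4a2 and Nr4a3 encode orphan nuclear receptors of the Nur77 family, which follow antigen-receptor and calcium signals in lymphocytes and also respond to cAMP and inflammatory signals in myeloid cells. Fos and Jun, subunits of the AP-1 factor, are early genes of the same kind, and they are known to be switched on by the enzymatic digestion of tissue, so their values are given beside those of the members.

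RefSeq promoter sequences (GRCm38.p6) were at hand for Nr4a1, Nr4a2, Nr4a3 and Egr2, and Egr1 and Egr3 are named only. The 250 bases before a transcription start are shown for these 4 genes because they hold recognition letters of the factors that carry calcium, cAMP and growth factor signals to early genes. They are chr15:101266596-101266845 (plus strand), chr2:57124004-57124253 (minus strand), chr4:48045055-48045304 (plus strand) and chr10:67537619-67537868 (plus strand, 1 of several Egr2 starts). Capitals mark TGACG on either strand, the core letters of a cAMP response element, and the CArG box bound by serum response factor.
Nr4a1: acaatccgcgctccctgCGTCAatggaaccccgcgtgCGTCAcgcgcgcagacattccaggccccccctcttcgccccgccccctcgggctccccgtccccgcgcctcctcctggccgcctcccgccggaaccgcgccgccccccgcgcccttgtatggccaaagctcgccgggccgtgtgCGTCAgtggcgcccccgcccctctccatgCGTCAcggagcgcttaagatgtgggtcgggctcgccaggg
Nr4a2: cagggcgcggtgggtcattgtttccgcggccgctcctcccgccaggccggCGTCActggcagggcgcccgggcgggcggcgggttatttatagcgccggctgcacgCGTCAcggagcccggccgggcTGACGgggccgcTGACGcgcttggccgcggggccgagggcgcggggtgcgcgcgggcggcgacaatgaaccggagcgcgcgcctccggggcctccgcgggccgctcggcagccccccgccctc
Nr4a3: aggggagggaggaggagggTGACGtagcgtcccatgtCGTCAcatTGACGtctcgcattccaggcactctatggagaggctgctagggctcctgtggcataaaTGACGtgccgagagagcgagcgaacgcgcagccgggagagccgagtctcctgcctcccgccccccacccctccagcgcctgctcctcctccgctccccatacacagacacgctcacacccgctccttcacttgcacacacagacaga
Egr2: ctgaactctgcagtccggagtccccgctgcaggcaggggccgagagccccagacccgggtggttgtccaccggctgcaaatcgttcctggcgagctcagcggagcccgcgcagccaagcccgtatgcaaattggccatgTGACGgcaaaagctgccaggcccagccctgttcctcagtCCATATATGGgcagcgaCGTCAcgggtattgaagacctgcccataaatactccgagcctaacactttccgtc
The letters TGACG occurred 4 times in each of the 3 Nr4a windows and 2 times in that of Egr2, which also held 1 CArG box. Of the 5 Egr2 windows in the reference, which overlap in part, 3 held both, 1 held a CArG box and no TGACG, and 1 held neither. Over all 32851 mouse promoter windows of this length, 17.8% held TGACG at least once and 0.137% (45 windows) held it 4 or more times, a limit set after these 3 were seen. A CArG box was in 1.47% of the windows. The full palindrome TGACGTCA (1.55% of windows, a subset of those with TGACG), the AP-1 letters TGANTCA (6.75%), the Nr4a monomer letters AAAGGTCA (1.34%) and the Egr letters GCGTGGGCG (0.536%) were searched on both strands too and were not in the 4 windows printed. A match in these letters is not a measured binding site.

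The 6 genes lie on 6 chromosomes of the mouse genome (GRCm38, GENCODE M21). Egr1 is at 18:34859823-34864984 and Egr2 at 10:67535475-67542188, both on the plus strand. Egr3 is at 14:70077203-70082614 and Nr4a1 at 15:101254269-101274795, both on the plus strand. Nr4a2 is at 2:57106830-57124003 on the minus strand and Nr4a3 at 4:48045153-48086447 on the plus strand. None of the 6 overlaps another annotated gene on either strand, so their reads are not shared with a neighbour.

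Molecules were counted as unique molecular identifiers (UMIs), 1 per captured transcript. After the filters of the study (over 100 genes, over 400 UMIs, under 5% mitochondrial and under 10% haemoglobin UMIs in a cell), 7941 cells with 81060645 UMIs were kept in mouse 1 and 6957 cells with 35474260 UMIs in mouse 2, with medians of 4381 and 2803 UMIs a cell. Clusters were named from marker genes, and a name ending in "-like" means only that. Lymphoid cells split into γδ T-like (2055 cells in mouse 1 and 4628 in mouse 2), CD8 αβ T-like (542 and 307), CD4 T-like (80 and 68), regulatory T-like (42 and 20) and innate lymphoid-like cells (145 and 84). The γδ T-like class mixes receptors, since Trdc was seen in 65.3% and Trac in 54.5% of its cells. The other classes were B-like (390 and 93), plasma-like (2196 and 608), monocyte-like (231 and 268), macrophage-like (387 and 188), dendritic-like (219 and 159) and enterocyte-like cells (907 and 224). The libraries shared 16 barcode sequences among kept cells. Levels are given as CPM, the UMIs of a gene per 1000000 UMIs summed over a class in 1 mouse, with a 95% exact Poisson interval that covers counting error only.

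Nr4a2 was highest in γδ T-like cells among the named classes, and the other T subsets had lower means than monocyte-like cells. In γδ T-like cells it stood at 126.1 CPM in mouse 1 (870 UMIs) and 95.8 CPM in mouse 2 (1220 UMIs), a mean of 111.0 ± 21.4 (SD, n = 2 mice), and this was the highest of 11 classes. Monocyte-like cells came next at 82.1 and 50.5 CPM, and the 2 mice of these classes did not overlap. CD8 αβ T-like cells held 83.3 CPM in mouse 1 and only 19.5 in mouse 2, so that their place in the order rests on mouse 1. CD4 T-like cells were lower, at 20.7 and 4.66 CPM (7 UMIs and 1 UMI), and regulatory T-like cells gave 5.52 and 53.1 CPM from 1 and 4 UMIs, which is too few to place them. At the low end stood enterocyte-like cells (5.12 and 7.63 CPM), B-like cells (5.33 and 4.20 CPM, 8 UMIs and 1 UMI) and plasma-like cells (2.18 and 1.69 CPM).

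All T- and innate lymphoid-like cells together held 66.2% of the Nr4a2 UMIs of mouse 1 from 39.6% of its cells and 13.3% of its UMIs. In mouse 2 they held 87.0% from 76.1% of the cells and 42.0% of the UMIs. Their Nr4a2 level was 48.1-fold that of plasma-like cells in mouse 1 and 57.4-fold in mouse 2. Immunoglobulin transcripts fill the plasma-like libraries and press every other gene down in CPM. With immunoglobulin genes left out of the totals the ratios were 16.1 and 18.5, and per cell they were 7.29 and 7.92, so T cells stood above plasma-like cells on each scale. Against monocyte-like cells the scale mattered: T- and innate lymphoid-like cells held 1.28-fold and 1.92-fold more Nr4a2 in CPM but 0.406-fold and 0.582-fold as many Nr4a2 UMIs per cell, since monocyte-like cells carried more UMIs. Each cell was also thinned to 1000 UMIs, which puts deep and shallow cells on 1 footing in depth. Immunoglobulin UMIs count among the 1000, so thinned shares of plasma-like cells, here and below, are still pressed down by them. After thinning, 10.1% of γδ T-like cells in mouse 1 and 6.70% in mouse 2 had an Nr4a2 UMI, against 0.137% and 0.329% of plasma-like cells. Before thinning the shares were 20.1% and 14.2% in γδ T-like cells (medians of 3188 and 2522 UMIs) and 3.92% and 2.63% in plasma-like cells (medians of 22419 and 20218.5 UMIs).

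**Figure D1:**
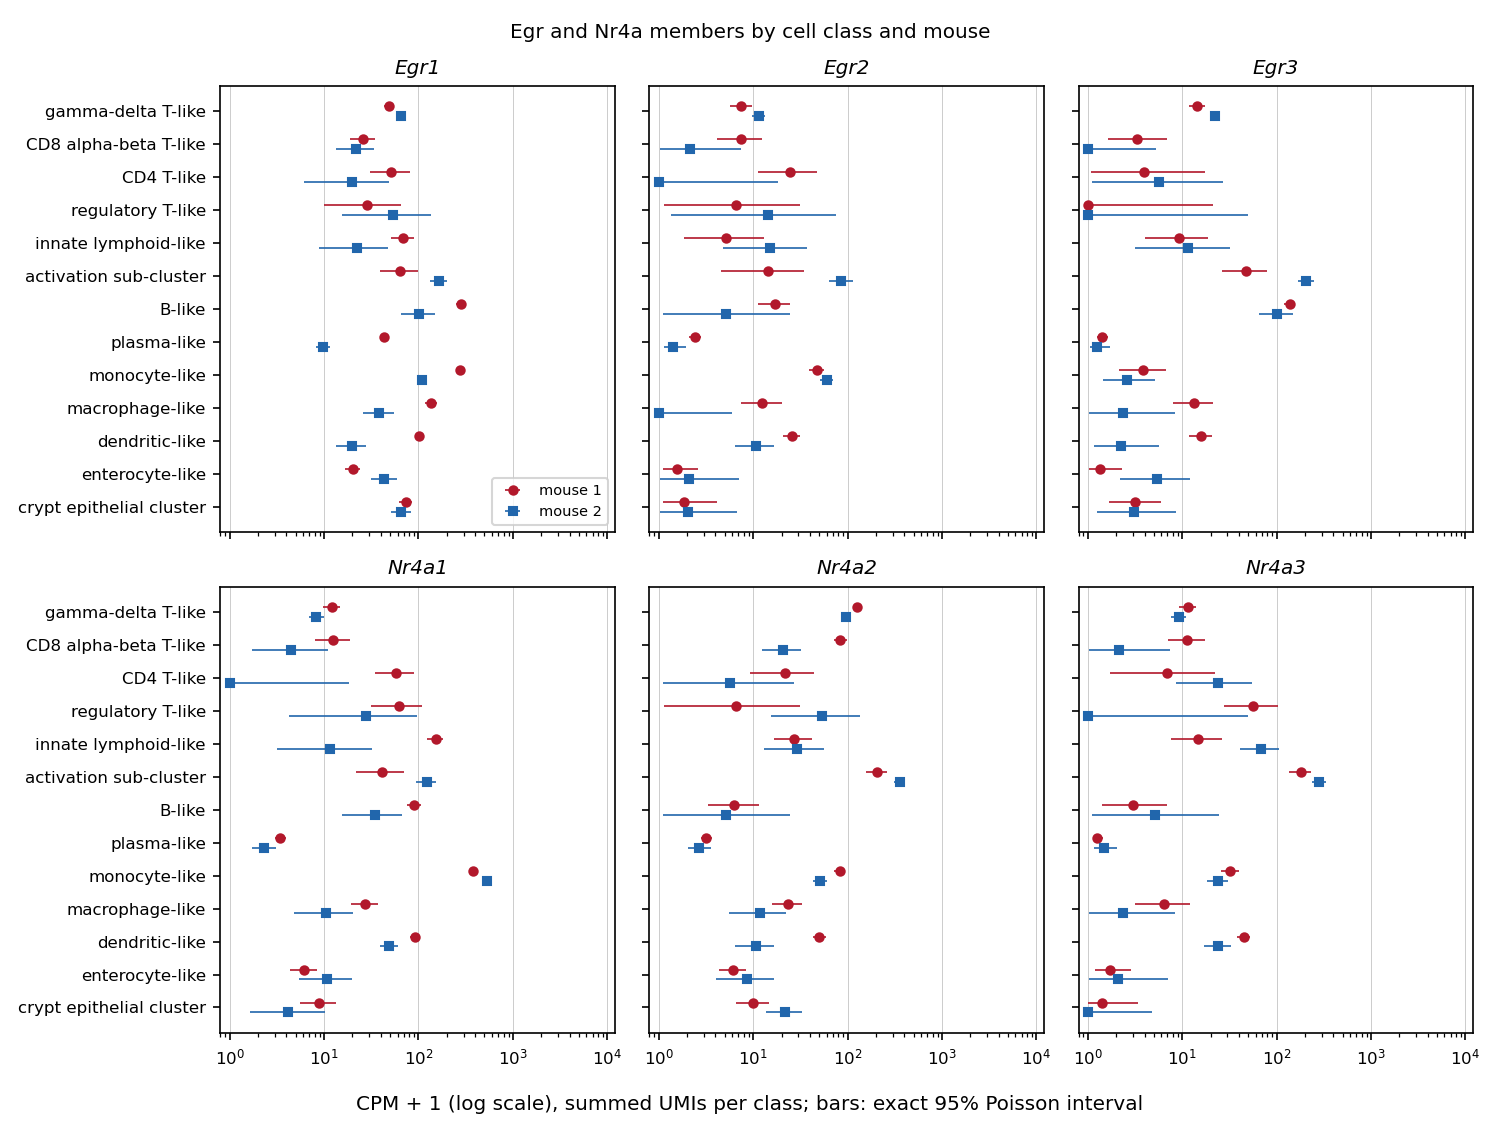
CPM + 1 of the 6 genes (x axis, log scale) by cell class (y axis) in mouse 1 (red circles) and mouse 2 (blue squares), with 95% exact Poisson intervals. Nr4a2 was highest among named classes in γδ T-like cells, Egr3 in B-like cells and Nr4a1 in monocyte-like cells, and an unnamed lymphoid sub-cluster led by activation genes had the highest Nr4a2 and Nr4a3 in both mice.

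Within the γδ T-like class Nr4a2 was uneven. Its 5 sub-clusters ranged from 64.7 to 179.1 CPM in mouse 1 and from 35.2 to 131.1 CPM in mouse 2. The sub-cluster led by Klre1, Bend7 and Bcl2l15 (446 and 1704 cells) was the highest in both mice. The sub-cluster led by Scin, Plac8 and Zeb2 differed most between the mice, at 143.2 CPM in mouse 1 and 35.2 in mouse 2. Egr3 was spread differently over the same cells. It was highest in the sub-cluster with Id3, Tcf7 and Kit among its leading genes (34.5 and 60.04 CPM) and lowest in that led by Scin (0.723 and 1.91 CPM). Picking cells by receptor transcripts instead of clusters kept the same picture for γδ cells: cells with a Trdc UMI and none of Cd8b1 or Cd4 held Nr4a2 at 133.0 and 105.2 CPM, cells with Cd8b1 alone at 73.3 and 38.5 CPM, and cells with Cd4 alone at 4.72 and 49.4 CPM (2 and 12 UMIs). The CD4 cells of mouse 2 thus moved from 4.66 to 49.4 CPM with the way they were picked.

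Nr4a2 and Nr4a3 reached their highest levels in a small lymphoid sub-cluster of 43 cells in mouse 1 and 98 cells in mouse 2. Its leading genes were Nr4a3, Ccl4, Xcl1, Cxcl10 and Stmn1, with Egr3 also in its top 10. It was left unnamed because members and activation genes were among its leading genes, whatever subset markers it held. Cd3e was seen in 95.7%, Trdc in 61.7% and Trac in 74.5% of its cells. The members were left out of the genes used to find clusters, but genes that rise with them were not. Members also helped to set these cells apart from the named subsets. The levels of the members here thus describe the sub-cluster and are no test. Nr4a3 stood at 178.9 CPM in mouse 1 and 281.5 in mouse 2, and Nr4a2 at 202.1 and 355.4 CPM. Egr3 reached 46.4 and 205.7 CPM, Egr2 13.3 and 84.8, Egr1 62.9 and 162.4, and Nr4a1 39.8 and 120.9. All 6 were higher in mouse 2, while Fos went the other way, with 182.2 CPM in mouse 1 and 39.7 in mouse 2.

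Nr4a3 had no clear class of its own elsewhere. Innate lymphoid-like cells gave 13.8 and 67.1 CPM, dendritic-like cells 43.9 and 23.1, regulatory T-like cells 55.2 and 0 (10 UMIs and none), and monocyte-like cells 31.4 and 22.9. These 4 classes overlapped between the mice, and the top place passed to dendritic-like or CD4 T-like cells under other filters and clusterings. Within the innate lymphoid-like class the Ncr1-led cells (31 and 26 cells) held 26.7 and 186.4 CPM. The lowest means were those of enterocyte-like cells (0.731 and 1.09 CPM) and plasma-like cells (0.263 and 0.484 CPM), each without overlap with the class next above it.

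Nr4a1 was highest in monocyte-like cells among the named classes. These cells, whose cluster was led by Chil3, Fn1, Thbs1 and Vcan, stood at 372.3 CPM in mouse 1 (925 UMIs) and 534.0 in mouse 2 (1331 UMIs), a mean of 453.1 ± 114.3 (SD, n = 2). They were 2.91% and 3.85% of the kept cells, with 3.07% and 7.03% of all UMIs, and held 49.4% and 80.6% of all Nr4a1 UMIs. After thinning, 34.8% and 36.7% of them had an Nr4a1 UMI, against 0.229% and 0.165% of plasma-like cells. Before thinning the shares were 76.6% and 78.0% in monocyte-like cells (medians of 9893 and 8425.5 UMIs) and 4.01% and 1.48% in plasma-like cells.

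No other named class overlapped the monocyte-like level of Nr4a1. Innate lymphoid-like cells followed on average, but with 150.5 CPM in mouse 1 and 10.6 in mouse 2 (109 and 3 UMIs) they are set by mouse 1. Dendritic-like cells held 91.2 and 48.1 CPM, most of it in the Ppp1r14a-led cells (110.1 and 76.9) and little in the Siglech-led cells (22.8 and 7.69). B-like cells held 89.2 and 33.6 CPM. The T cells were low, with 11.02 and 7.31 CPM in γδ T-like and 11.6 and 3.45 CPM in CD8 αβ T-like cells. CD4 T-like cells gave 56.2 CPM in mouse 1 (19 UMIs) and none in mouse 2, where a count of 0 allows up to 3 UMIs. Nr4a1 therefore did not follow Nr4a2 across classes: monocyte-like cells exceeded all T- and innate lymphoid-like cells 15.8-fold and 46.0-fold in Nr4a1, while for Nr4a2 in CPM the T- and innate lymphoid-like cells were the higher ones.

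Egr3 was highest in B-like cells among the named classes. Their level was 136.5 CPM in mouse 1 (205 UMIs) and 100.9 in mouse 2 (24 UMIs), a mean of 118.7 ± 25.2 (SD, n = 2). γδ T-like cells were second by mean at 13.3 and 21.2 CPM, and innate lymphoid-like cells came after them at 8.28 and 10.6 CPM (6 and 3 UMIs). Each of these steps between neighbours was free of overlap between the mice. The 2 places below B-like cells were not free of overlap with all other classes. In mouse 1 dendritic-like cells held 14.8 CPM and macrophage-like cells 12.3, and in mouse 2 1.28 and 1.34. The order below B-like cells changed with the clustering: with the list genes kept in its features γδ T-like cells had a mean of 6.17 CPM in place of 17.3 and fell behind dendritic-like cells (8.13). B-like cells were 12.1-fold above all T- and innate lymphoid-like cells in mouse 1 and 3.86-fold in mouse 2. After thinning, 11.5% and 7.53% of B-like cells had an Egr3 UMI, against 0.0458% of plasma-like cells in mouse 1 and none of 607 in mouse 2, a count of 0 that allows up to 3 cells. Before thinning the shares were 27.9% and 19.4% in B-like cells (medians of 3408 and 2350 UMIs) and 0.638% and 0.493% in plasma-like cells. Plasma cells arise from B cells, and Egr3 stood at 0.425 and 0.242 CPM in them. Regulatory T-like cells held no Egr3 UMI in either mouse, among 42 and 20 cells.

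Egr2 was highest in monocyte-like cells among the named classes, and for Egr1 monocyte-like and B-like cells shared the top. Egr2, known as a brake on T-cell activation, stood at 46.7 and 59.0 CPM there, above dendritic-like cells (24.7 and 9.61) without overlap. The other classes had lower means, though in mouse 2 innate lymphoid-like (14.1), regulatory T-like (13.3) and γδ T-like cells (10.5) exceeded dendritic-like cells, and CD4 T-like cells took second place at resolution 0.4 (mean of 31.3 against 13.9). The lowest were plasma-like (1.44 and 0.403) and enterocyte-like cells (0.548 and 1.09). For Egr1 the order was loose. Monocyte-like cells gave 270.9 CPM in mouse 1 and 109.1 in mouse 2, and B-like cells 277.6 and 100.9, so that the means of 190.0 ± 114.4 and 189.3 ± 125.0 (SD, n = 2) could not be told apart. B-like cells took first place with mitochondrial UMIs under 10% (208.8 against 193.3) and with high doublet scores removed (213.8 against 191.6), and none of the 10 steps from 1 class to the next was free of overlap. Macrophage-like cells held 134.9 and 37.5 CPM and dendritic-like cells 101.1 and 18.6, both higher in mouse 1. γδ T-like cells held 47.4 and 63.8 CPM, CD8 αβ T-like cells 24.9 and 20.7, and enterocyte-like cells 19.02 and 42.5. In an unnamed epithelial cluster led by Gkn3, Reg4 and Spink4 (144 and 64 cells) Egr1 was at 72.4 and 64.8 CPM, a ratio of 1.12 between the mice. In an unnamed cluster of only 18 and 9 cells, led by S100a9, S100a8 and G0s2, it reached 1317 and 822 CPM (79 and 31 UMIs), beside Nr4a1 at 717 and 583 CPM and Fos at 4285 and 5698 CPM.

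Plasma-like cells were high in Fos and Jun and, in CPM, low in the members, which for Egr1 depended on the scale. They held Fos at 1238 CPM in mouse 1 and 444.3 in mouse 2, and Jun at 486.2 and 162.8 CPM. With immunoglobulin genes left out, Fos was at 3808 and 1387 CPM. They held 61.0% and 35.0% of the UMIs of all genes. Beside that, they held 80.6% and 47.3% of all Fos UMIs but 6.33% and 1.26% of those of Nr4a2 and 6.46% and 0.969% of those of Nr4a1. For each Fos or Jun UMI they carried 0.00284 and 0.00571 Nr4a UMIs, the lowest of all named classes. Egr1 stood at 42.6 CPM in mouse 1 (2109 UMIs, 45.1% of all Egr1 UMIs of that mouse) and 8.71 in mouse 2 (108 UMIs, 6.81%). These shares also lie below those of all UMIs, and by mean CPM plasma-like cells were 10th of 11 classes. The Egr1 CPM of T- and innate lymphoid-like cells was 1.08-fold that of plasma-like cells in mouse 1 and 7.23-fold in mouse 2. With immunoglobulin genes left out of the totals the ratios were 0.362 and 2.33, and per cell they were 0.164 and 0.998.

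**Figure D2:**
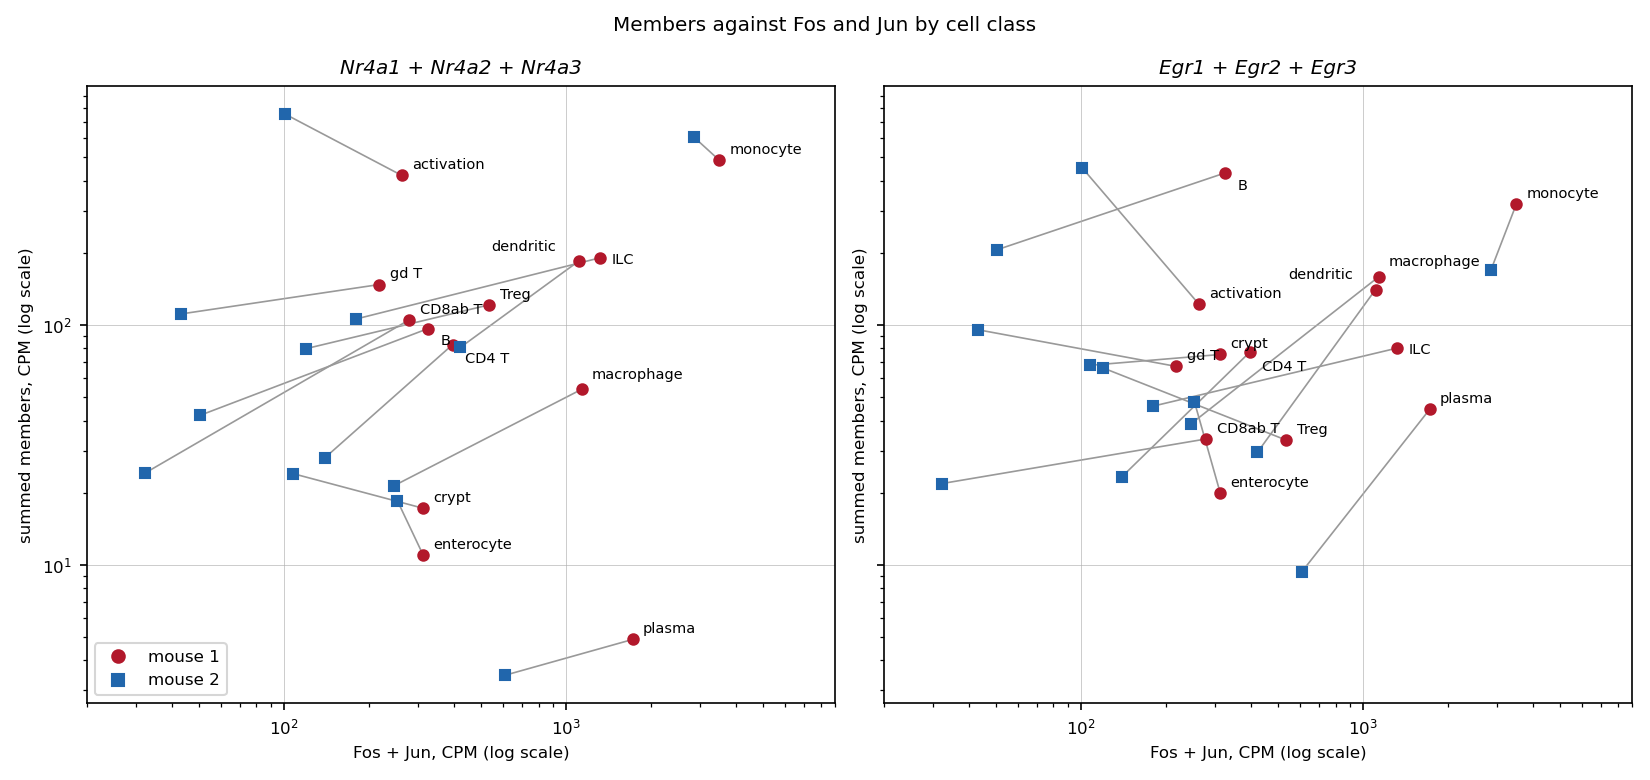
Summed Nr4a (left) and Egr (right) CPM on the y axis against Fos + Jun CPM on the x axis, both log scales, with 1 red circle (mouse 1) and 1 blue square (mouse 2) per class joined by a line. Plasma-like cells lay at high Fos + Jun (1724 and 607 CPM) with Nr4a sums of 4.89 and 3.47 CPM, and monocyte-like cells were high in both. The activation sub-cluster had the highest Nr4a sum of mouse 2 (757.8 CPM). Its Fos + Jun was 261.7 and 101.0 CPM, beside 319.3 and 48.9 CPM in all T- and innate lymphoid-like cells (not drawn).

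The ratio of members to Fos and Jun differed by class. Each UMI stands for 1 molecule whatever the length of its transcript, but capture may differ between genes, so the ratios are compared between classes only. T- and innate lymphoid-like cells carried 0.453 Nr4a UMIs for each Fos or Jun UMI in mouse 1 and 2.62 in mouse 2. The activation sub-cluster carried 1.61 and 7.5. Monocyte-like cells carried 0.139 and 0.213 and enterocyte-like cells 0.0351 and 0.0733. For Egr UMIs the highest named class was B-like, with 1.33 and 4.08, and plasma-like cells again had the lowest values, 0.0258 and 0.0154.

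Over the 11 classes the correlation of a member with Fos + Jun, both as log2(CPM + 10), varied by member. These points share 2 libraries and differ in depth, so r is a description. For Nr4a2 Pearson's r was -0.0023 in mouse 1 and -0.0702 in mouse 2. For Egr3 it was -0.224 and -0.451, for Egr2 0.374 and 0.511, and for Nr4a3 0.296 and 0.269. Egr1 gave 0.477 in mouse 1 and 0.0220 in mouse 2. Nr4a1 had the highest values, 0.509 and 0.633. Several of these values rested on the monocyte-like cells. Over the 10 other classes r was 0.217 and 0.0282 for Nr4a1, -0.0356 and -0.152 for Egr2 and 0.227 and -0.586 for Egr1. It was -0.314 and -0.499 for Nr4a2, 0.121 and 0.109 for Nr4a3 and -0.167 and -0.491 for Egr3, which moved little.

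In T- and innate lymphoid-like cells the 2 mice differed more in Fos and Jun than in the members. Fos was at 169.2 CPM in mouse 1 and 19.2 in mouse 2, a ratio of 8.82, and the ratio was 10.7 for Fosb, 5.05 for Jun and 3.60 for Junb. In the same cells Nr4a2 gave 105.0 and 97.2 CPM, a ratio of 1.08, Nr4a3 16.2 and 19.3 CPM (0.840), and Nr4a1 23.6 and 11.6 CPM (2.03). The Egr genes were lower in mouse 1: Egr1 at 46.1 and 62.9 CPM (0.733), Egr2 at 6.97 and 12.5 (0.556) and Egr3 at 11.3 and 26.1 (0.431). γδ T-like cells make up most of this pool, and within the subsets the Egr sum did not keep 1 direction. It was 67.3 and 95.5 CPM in γδ T-like cells but 33.5 and 21.8 in CD8 αβ T-like, 76.9 and 23.3 in CD4 T-like (26 and 5 UMIs) and 80.1 and 45.9 in innate lymphoid-like cells (58 and 13 UMIs).

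Other classes did not all behave this way. In CD8 αβ T-like cells Nr4a2 was 4.26-fold higher in mouse 1, beside 14.03-fold for Fos. In innate lymphoid-like cells Fos was 15.9-fold higher in mouse 1, while Nr4a1 had 109 UMIs in mouse 1 and 3 in mouse 2. In B-like cells Fos had 313 UMIs in mouse 1 and 3 in mouse 2, and Egr1 was 2.75-fold and Egr3 1.35-fold higher in mouse 1. Plasma-like cells had Egr1 4.90-fold higher in mouse 1 and Fos 2.79-fold. In monocyte-like cells neither differed much, with 1.21 for Fos and 0.697 for Nr4a1. Over classes with 3 or more UMIs in each mouse the median ratio was 5.28 for Fos and 5.55 for Fosb, and it ran from 0.792 (Egr2) to 2.70 (Egr1) among members. For Jun and Junb it was 2.99 and 2.62, close to that of Egr1. With 1 library a mouse, digestion, depth, RNA of plasma-like cells counted in other cells and the animal cannot be told apart as the source of this difference.

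**Figure D3:**
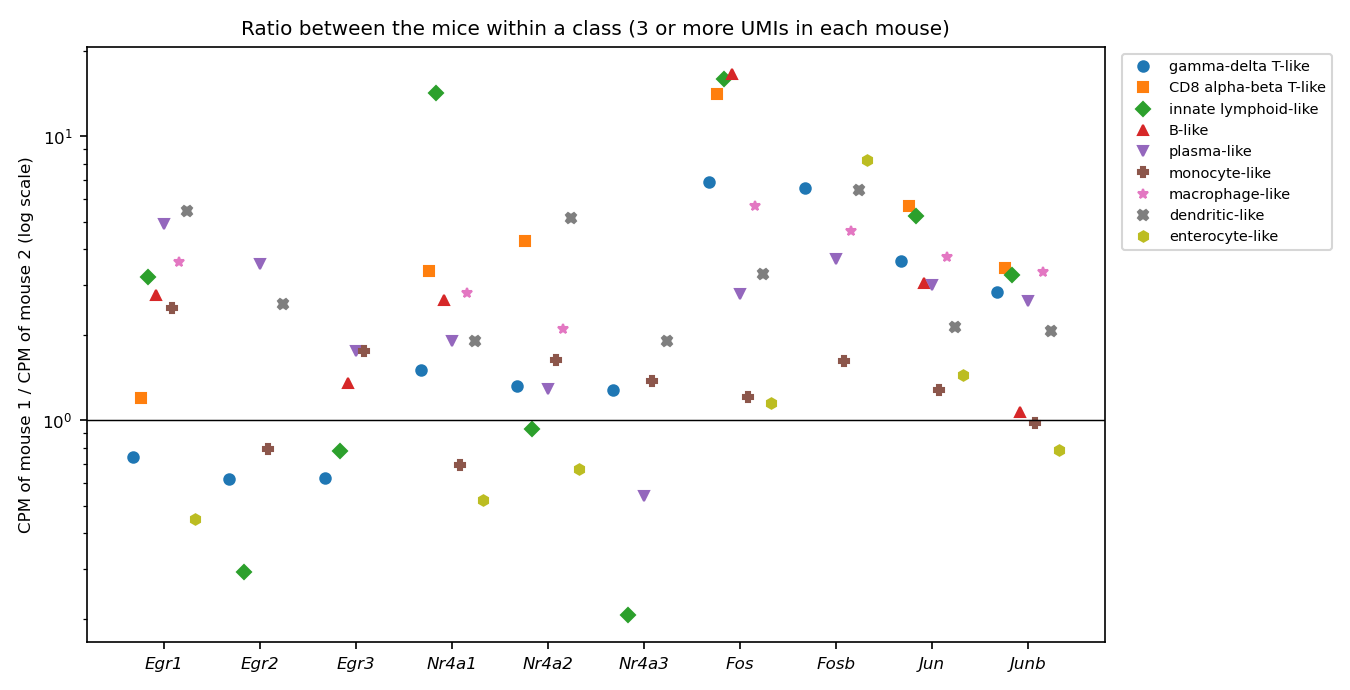
Ratio of the CPM of mouse 1 to that of mouse 2 (y axis, log scale, line at 1) for the members and 4 AP-1 genes (x axis), with 1 symbol per class and classes with under 3 UMIs in either mouse left out. Fos and Fosb lay above 1 in every class shown, while each member lay on both sides of it.

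Within a class, single cells were compared with and without a Fos or Jun UMI, after thinning to 1000 UMIs. In T- and innate lymphoid-like cells of mouse 1, 16.4% of 614 cells with Fos or Jun had any Nr4a UMI (95% exact binomial interval 13.6 to 19.6%), against 8.20% of 2428 cells without (7.14 to 9.36%). In mouse 2 it was 11.8% of 221 cells (7.83 to 16.8%) against 7.12% of 4989 cells (6.42 to 7.86%). The intervals stood apart in mouse 1 and overlapped in mouse 2. Cells without a Fos or Jun UMI made up 66.3% and 93.2% of the cells in which Nr4a was seen, beside 79.8% and 95.8% of all T- and innate lymphoid-like cells. At this depth a cell with no Fos or Jun UMI may still hold their transcripts.

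In CD8 αβ T-like cells of mouse 1 the contrast was steeper, 14.4% of 118 cells against 2.59% of 424 cells, and mouse 2 had only 9 cells with Fos or Jun, none with an Nr4a UMI. Monocyte-like cells gave 41.0% of 200 against 29.6% of 27 cells in mouse 1, whose intervals overlap, and 46.8% of 201 against 18.2% of 66 cells in mouse 2. In the activation sub-cluster the direction was not shared, with 40% of 15 against 28.6% of 28 cells in mouse 1 and 23.1% of 13 against 34.1% of 85 cells in mouse 2. Plasma-like cells had Nr4a in 0.440% of 1364 cells with Fos or Jun and in 0.611% of 818 without in mouse 1, and in 1.06% of 189 and 0.239% of 418 in mouse 2.

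For Egr1 in plasma-like cells the intervals stood apart in mouse 1 and overlapped in mouse 2. In mouse 1, 5.43% of plasma-like cells with a Fos or Jun UMI had an Egr1 UMI (4.28 to 6.76%), against 0.733% of those without (0.270 to 1.59%). In mouse 2 the shares were 2.65% (0.864 to 6.07%) and 0.957% (0.261 to 2.43%). In B-like cells of mouse 1 any Egr UMI was seen in 23.5% of 81 cells with Fos or Jun and in 19.4% of 309 without, intervals that overlap as well. In T- and innate lymphoid-like cells the Egr shares were 5.54% and 3.21% in mouse 1 and 9.95% and 4.21% in mouse 2.

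**Figure D4:**
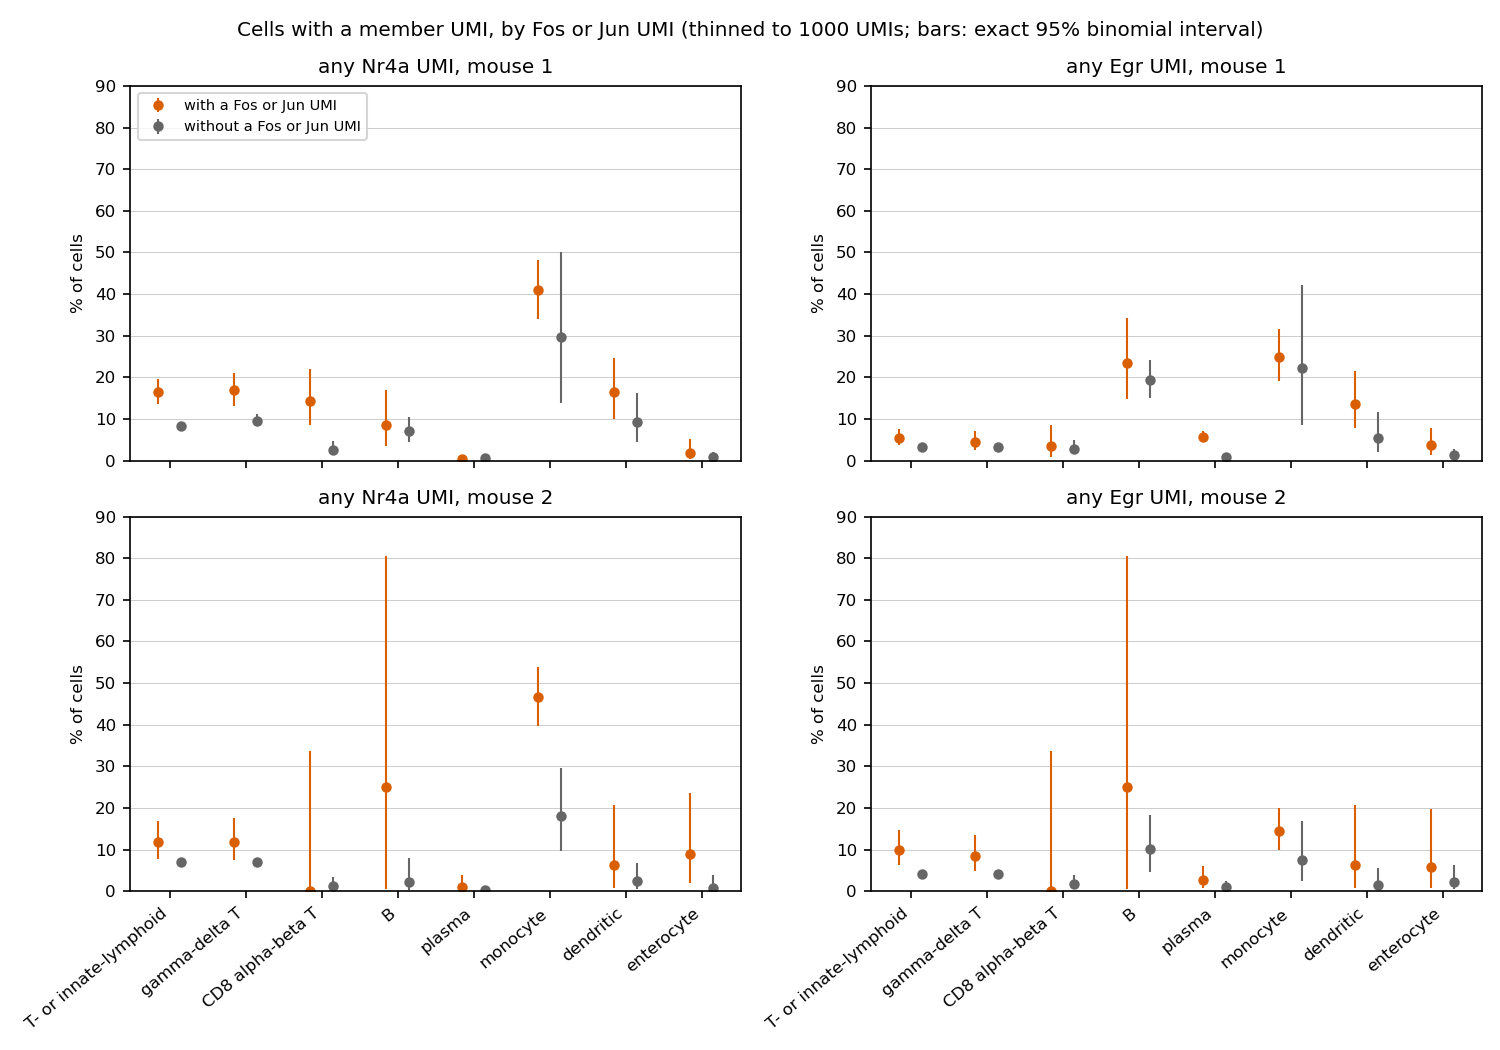
Percent of cells (y axis) with any Nr4a UMI (left) or any Egr UMI (right) among cells with (orange) and without (grey) a Fos or Jun UMI, by class, in mouse 1 (top) and mouse 2 (bottom), after thinning to 1000 UMIs, with 95% exact binomial intervals. In T- and innate lymphoid-like cells of mouse 1 Nr4a was seen in 16.4% of cells with and 8.20% of cells without, and both shares were near 0 in plasma-like cells.

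Transcripts of plasma cells were also counted in cells of other classes. Jchain, the joining chain of secreted IgA, was seen in 79.1% of T- and innate lymphoid-like cells. It stood at 2464 CPM in T- and innate lymphoid-like cells of mouse 1 and at 424 in mouse 2, against 61692 and 68433 CPM in plasma-like cells. For every 1000 Jchain UMIs, plasma-like cells carried 0.0354 and 0.0247 Nr4a2 UMIs and T- and innate lymphoid-like cells 42.6 and 229.2. For Fos the same figures were 20.1 and 6.49 in plasma-like cells and 68.7 and 45.3 in T- and innate lymphoid-like cells. The ratio of Nr4a2 to Jchain thus differed between these classes far more than that of Fos to Jchain did. Like Fos, Jchain was higher in T- and innate lymphoid-like cells of mouse 1 than of mouse 2. How many Fos and Jun UMIs in these cells came from plasma-like cells was not tested. The mouse ratios of Fos and the groups with a Fos or Jun UMI carry this limit.

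Some single cells held UMIs of more than 1 member. After thinning, 55 of 5210 T- and innate lymphoid-like cells of mouse 2 had both Egr1 and Nr4a2, where the product of their shares gives 11.4 cells, and in mouse 1 it was 20 of 3042 cells against 7.19. Egr1 with Egr2 was seen in 22 cells of mouse 2 against 1.60, and Nr4a2 with Nr4a3 in 23 against 3.36. In mouse 1 these pairs were seen in 4 cells against 0.473 and in 8 against 2.80. The activation sub-cluster of mouse 2 (98 cells), which members helped to set apart, held 2 of those 22 cells and 11 of those 23. In B-like cells of mouse 1 Egr1 with Egr3 was seen in 16 of 390 cells against 5.54. In monocyte-like cells of mouse 1 Egr1 and Nr4a1 met in 16 of 227 cells, where the product gives 16.4, and in mouse 2 in 15 of 267 against 9.18. The product of shares is a description and no test was made on it.

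Across the 22 class sums (11 classes in 2 mice) the pattern of Nr4a1 was most like those of Mcl1 (Pearson's r of 0.872), H3f3b (0.825), Plk3 (0.793), Bambi (0.788) and Osm (0.782), out of 11141 genes with 200 or more UMIs and outside the lists used here. That of Egr1 was most like those of Pold4 (0.763), Rasgef1b (0.730), Neurl2 (0.722), Cd83 (0.720) and Gm19951 (0.716). Nr4a1 was also like Junb (0.903) and Egr2 (0.818), and for Nr4a2 the value with Fos was 0.0393. The sums of 1 mouse share a library, so these values are descriptions.

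Genes that act around the members were tested between classes, with the members left out. Counts were summed per class and mouse and fitted with edgeR's quasi-likelihood test, with Benjamini-Hochberg adjustment over all genes and a threshold of 0.05 on the adjusted p. The 2 mice are the replicates of each class. The main fit had no term for the mouse, and the spread between mice was pooled over all classes in it. Sums of the same mouse were treated as independent, although they are paired. A p-value therefore leaves out this pairing and is not a measure of the spread between 2 animals in a single comparison. A list of 32 stress genes held AP-1 subunits, other early genes of dissociation and heat shock genes. A list of 31 activation genes held known products of antigen-receptor signalling. A list of 20 regulators held factors upstream of the members, the Egr corepressor Nab1, and Rxra and Rxrb, partners of Nr4a1 and Nr4a2. The activation list was not limited to genes that all compared classes express. Its counts therefore do not tell the identity of a class apart from signalling in it.

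Between T- and innate lymphoid-like cells and B-like cells, both of which signal through an antigen receptor, 18.0% of 13085 genes were called, 12.1% as higher and 5.84% as lower in T cells. On simulated data this comparison gave more false calls than the threshold allows, so its counts and named genes may hold more of them than the adjusted p states. The balance also depends on the scaling: with DESeq2's size factors 874 genes were higher and 1229 lower, against 1588 and 764 here, and the median over all genes moved from 0.38 to -0.08. Of the stress genes 1 was higher in T cells and 3 lower, out of 30 tested, with a median log2 fold of -0.19 against 0.38 over all genes. With the mouse as a block the stress calls rose from 4 to 11. Fos itself did not pass (log2 fold -0.47, adjusted p = 0.816). In the simulated data of this comparison 10.9% of genes with a log2 change of 1 were recovered, so a gene not called may still differ. The called genes were Fosl2 (2.47 ± 0.63, SE), an AP-1 subunit, and on the B side Ier5 (-2.18 ± 0.33), Zfp36 (-2.16 ± 0.33), which degrades cytokine transcripts, and Csrnp1 (-1.92 ± 0.35). Of the activation genes 12 were higher and 4 lower out of 31. Ifng (8.24 ± 2.29, with no UMI in B-like cells, so that its size depends on the prior count), Tnfrsf9, the co-stimulator 4-1BB (4.93 ± 0.51, on 3 UMIs in B-like cells), and Ccl4, a chemokine (4.85 ± 0.52), were higher in T cells. The phosphatase Dusp2 (-3.10 ± 0.36), Nfkbid (-2.13 ± 0.24) and Myc (-1.98 ± 0.33) were higher in B-like cells. Of the 20 regulators 4 were higher in T cells, among them Elk3 (1.57 ± 0.25), Nfatc2 (1.38 ± 0.28) and Nab1 (1.32 ± 0.23), and 3 were higher in B-like cells: Mef2c (-7.32 ± 1.02), Ppp3ca, the catalytic subunit of calcineurin (-1.54 ± 0.22), and Mef2d (-1.17 ± 0.22).

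Against plasma-like cells 43.6% of genes were called (24.2% higher and 19.4% lower in T cells, 3169 and 2539 genes, against 2287 and 2923 with DESeq2's size factors), and stress and activation genes went opposite ways. Of 30 stress genes 15 were lower in T- and innate lymphoid-like cells and 1 higher, with a median log2 fold of -1.17 against 0.11 over all genes. Fosb (-5.29 ± 1.38, adjusted p = 0.0105), Fos (-5.06 ± 1.22, adjusted p = 0.00707) and Jun (-3.76 ± 0.87) had the largest differences, and Fosl2 was the exception (3.36 ± 0.42). Of 31 activation genes 24 were higher in T cells, led by Spry2 (4.52 ± 0.60), an inhibitor of ERK signalling, the chemokine Xcl1 (4.39 ± 0.61) and Crtam (4.17 ± 0.42), and 3 were lower. Those 3 were Cd69 (-2.04 ± 0.62), Pim1 (-1.69 ± 0.34) and Dusp5 (-1.43 ± 0.34). On the CPM scale Cd69 was at 161.05 and 88.7 in T cells and 165.5 and 111.9 in plasma-like cells: the TMM scaling in edgeR corrects for the share taken by immunoglobulin transcripts, and in CPM the 2 classes overlapped between the mice. Of the regulators 8 were higher and 4 lower, led by Nfatc2 (2.79 ± 0.24), Elk3 (1.87 ± 0.21) and Crtc3 (1.57 ± 0.20) on the T side and by Mef2c (-7.06 ± 1.00), Mef2d (-0.87 ± 0.20) and Ppp3ca (-0.69 ± 0.21) on the plasma side.

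Against enterocyte-like cells 63.5% of genes were called, 33.0% as higher and 30.4% as lower in T cells (4321 and 3982 genes, against 2946 and 4601 with DESeq2's size factors, where the median over all genes moved from 0.14 to -0.29). Activation genes were 23 higher and 1 lower in T- and innate lymphoid-like cells out of 31, and regulators 15 higher and 1 lower out of 20. Crtam (4.71 ± 0.57), Ccl4 (4.69 ± 0.48) and Pdcd1 (4.44 ± 1.40, on 1 UMI in enterocyte-like cells) led the first, and Elk3 (4.32 ± 0.29), Nfatc2 (3.84 ± 0.32) and Elk1 (2.52 ± 0.56) the second. Phlda1 (-4.59 ± 0.40) and Rxra, the retinoid X receptor that pairs with Nr4a1 and Nr4a2 (-4.21 ± 0.43), were the genes of these lists higher in enterocyte-like cells. Of 30 stress genes 11 were lower and 1 higher. The largest differences among the lower ones were those of Klf4 (-6.02 ± 0.57), Ier3 (-4.78 ± 0.52) and Atf3 (-2.60 ± 0.52), Csrnp1 was the higher one (1.15 ± 0.42), and Klf4 is also known as a regulator of mature intestinal epithelium.

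Among T cells, CD8 αβ T-like and CD4 T-like cells were compared, where 3.85% of 7592 genes were called (1.09% higher and 2.75% lower in CD8 cells). Of 28 stress genes 2 were lower in CD8 cells, Dusp1 (-2.95 ± 0.73) and Nfkbia (-1.95 ± 0.25), and none was higher. At an unadjusted p under 0.05 the count was 6, and DESeq2 called 4. Of 29 activation genes 2 were higher, Ccl4 (3.80 ± 0.65) and Crtam (3.55 ± 0.71, on 2 UMIs in CD4 cells), and 4 were lower, among them the checkpoint receptor Pdcd1 (-4.14 ± 0.94, on 3 UMIs in CD8 and 12 in CD4 cells), Bhlhe40 (-2.0 ± 0.31) and Tnfrsf9 (-1.98 ± 0.51). Of 17 regulators Crem, an early repressor at cAMP response elements, was lower (-2.80 ± 0.43). With the mouse as a block the stress calls were 13 and the activation calls 14, so these counts depend on the model. Both higher calls among activation genes were lost at resolution 0.4 (0 higher and 17 lower) and with high doublet scores removed (0 and 15). The CD4 sums rest on 80 and 68 cells.

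**Figure D5:**
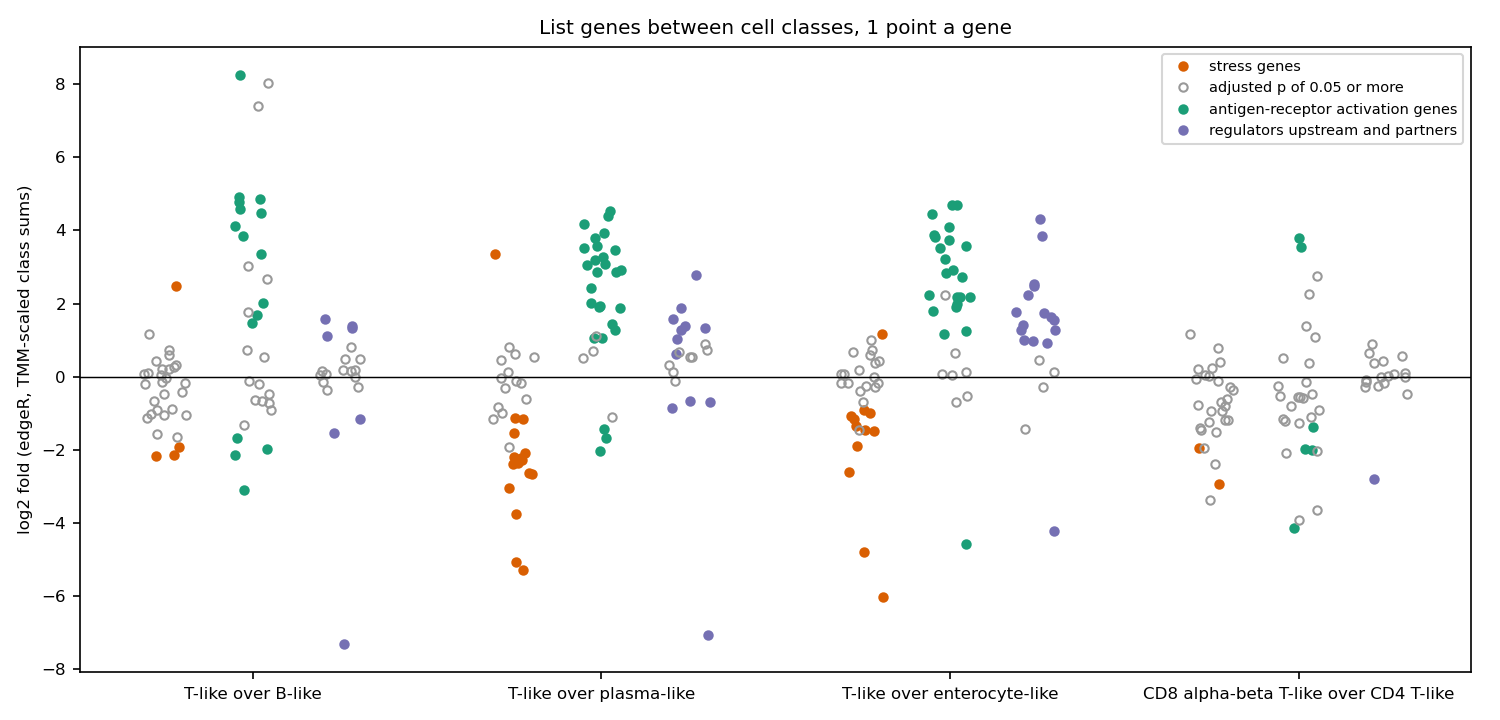
Log2 fold of each list gene (y axis, edgeR on TMM-scaled sums) in 4 comparisons of classes (x axis, where T-like stands for T- and innate lymphoid-like cells), with filled points for adjusted p under 0.05 (orange for stress, green for activation, purple for regulators) and open points for the rest. Against plasma-like cells the filled points were 24 activation genes above and 3 below 0, and 1 stress gene above and 15 below it.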

How the data were processed

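The authors deposited whole-number UMI counts, not normalized, in a matrix of genes by barcodes for each of 2 libraries of 1 group. Per the labels they were made with Cell Ranger 6.1.2 on mm10. The annotation release was not given in the sources used here, and 30934 of 31053 gene IDs matched GENCODE M21, which shares the build. There were 85670711 UMIs in 9645 barcodes for mouse 1 and 38716743 in 8800 for mouse 2. Cells were filtered by the limits that the study gives, with genes kept when seen in 3 or more cells. The precision of each value follows from its UMI count, and intervals cover counting error only.

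The 6 members, the gene lists, the markers and the alternatives were chosen with earlier results of these data known. The 2 mice were aligned with reciprocal PCA (Seurat 5.3.0 in R 4.3.3, 2000 features without the members and list genes, 30 dimensions, resolution 0.8), and lymphoid clusters were clustered again. A name needed 3 markers seen in 10% of cells with a log2 fold of 1 over the median cluster, or over the lower quartile of lymphoid sub-clusters. It also needed a minimum share of the marker list or markers among the leading genes. Clusters led by genes of another class, the cell cycle, granulocytes, activation, immunoglobulins or interferon stayed unnamed. For lymphoid subsets the shares of cells with Cd3e, Trdc, Cd8b1, Cd4 and Foxp3 were weighed too. These scoring rules were written after the clusters had been seen, and no labels of cells by the authors were used. Doublets were kept, since Scrublet in scanpy 1.11.5 called 1 and 0 cells and had not worked.

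Sums per mouse and class were tested with edgeR 4.0.16 (TMM, filterByExpr, glmQLFit and glmQLFTest, two-sided) in 1 fit of T- or innate lymphoid-like, B-like, plasma-like, myeloid-like and enterocyte-like cells and 1 fit of the 5 lymphoid subsets, using classes with 20 or more cells in each mouse. SE is the log2 fold over the root of F. The steps were tested on simulated data, where false calls exceeded the threshold clearly for T over B cells. Each simulated sum was drawn on its own, so these rates do not cover the pairing of real sums of 1 mouse. Of genes with a simulated log2 change of 1, from 10.9% (T over B) to 17.2% (T over plasma) were recovered. Small counts of called genes are thus no sign that the others were equal. Sums of 1 mouse come from the same animal and are paired: their deviations from class means correlated at 0.155 to 0.587 in the first fit and 0.129 to 0.695 in the second, over 10 pairs of classes each. Genes named from a list are the 3 called genes with the largest fold in each direction that moved the same way in both mice, and for Nr4a1 and Egr1 the 5 genes of most like pattern. Others are named because few were called. Alternatives were DESeq2 1.42.0, no low-count filter, the mouse as a block, only the compared classes, each mouse left out, mitochondrial UMIs under 10%, resolutions of 0.4 and 1.2, high doublet scores removed, list genes kept in the features, immunoglobulin genes out of the totals (added after seeing the data), other depths of thinning and T cells picked by UMIs. Python 3.11.15, scipy 1.17.1 and matplotlib 3.10.9 served for the rest.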

Additional observations from a re-analysis of the deposited data

Results flagged for a closer look

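Barcodes that the filters removed, 1704 in mouse 1 and 1843 in mouse 2, mostly for a mitochondrial share of 5% or more, also held UMIs of the 6 genes. Each is listed because its signal lies outside the cells compared above and exceeds what a count of 0 allows. Egr1 had 403 UMIs there, Nr4a2 268, Nr4a1 211, Nr4a3 48, Egr2 44 and Egr3 24. By mouse, Egr1 stood at 51.4 and 51.2 CPM, Nr4a2 at 22.1 and 51.2 CPM and Nr4a1 at 19.3 and 37.6 CPM in these barcodes, beside Fos at 330.6 and 91.0 CPM. The cell classes of the removed barcodes were not determined, so no comparison was made with them. No group had the 4 samples that a check for a sample far from the others needs.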

How the results depend on the processing

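With the mouse as a replicate block, 11 stress genes were called between T and B cells in place of 4, and between CD8 and CD4 T cells 13 stress genes in place of 2 and 14 activation genes in place of 6. The block moved no other count of list genes by over 1.5 times. DESeq2 gave 8 stress genes between T and B cells and 4 between CD8 and CD4 T cells. Without the low-count filter these were 14 and 11, and the CD8 and CD4 activation count was 14. Other changes by over 1.5 times all fell between CD8 and CD4 T cells. Mitochondrial UMIs under 10% gave 4 stress and 10 activation genes, resolution 0.4 gave 7 stress, 17 activation and 2 regulator genes (in place of 1), and removal of high doublet scores gave 4 and 15. The cause was not tested. Of the alternative counts 105 stayed within 1.5 times and 15 did not. The 105 include 12 counts for each mouse left out, which hold no new test. The activation genes between CD8 and CD4 T cells went from 2 higher and 4 lower to 0 and 17 at resolution 0.4 and 0 and 15 with high doublet scores removed. With either mouse left out no test can be made. Every called gene moved the same way in the mouse left, so the counts remained 4, 16 and 7 (T over B), 16, 27 and 12 (T over plasma), 12, 24 and 16 (T over enterocyte) and 2, 6 and 1 (CD8 over CD4).

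Of the alternative member levels 561 moved by less than the SD of the 2 mice and 57 by more. The 561 include 78 values for each mouse left out, which with 2 mice always fall within that SD. At resolution 0.4 no regulatory T or activation sub-cluster formed. No activation sub-cluster formed with high doublet scores removed, and no regulatory T sub-cluster when the features included the list genes. These gave no value. Of the differences by Fos or Jun UMIs under other thinning or any AP-1 UMI, 41 moved by less and 7 by more than the spread of the mice. Depth limits the rarer subsets: regulatory T-like, CD4 T-like and mouse 2 B-like cells held from 0 to 24 UMIs of a member. Class names rest on 1 clustering of 2 libraries that differ in depth and in Fos.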
